A study of Mus musculus with 2 samples.

Results

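Matricellular proteins are secreted into the extracellular matrix, where they act on cells and on matrix assembly more than they bear load. The 10 genes described here encode proteins of this kind or close to it: Mgp, Sparc, Sparcl1, Tnc, Tnn, Thbs1, Cyr61, Ctgf, Fn1 and Abi3bp. They were chosen by name, with earlier results of these data known, from 17938 genes listed for 2 plates of single periosteal cells. All 10 were listed for both plates, and all 10 had enough UMIs (unique molecular identifiers, each standing for 1 captured transcript) to be tested. Mgp (matrix Gla protein) is a vitamin K-dependent inhibitor of mineral deposition in soft tissues. Sparc (osteonectin) binds collagen, and Sparcl1 (hevin) is its relative. The tenascins Tnc and Tnn and the thrombospondin Thbs1 modulate cell adhesion, Cyr61 and Ctgf belong to the CCN family (Ccn1 and Ccn2), Fn1 is fibronectin, and Abi3bp is a secreted matrix protein. The periosteum covers bone with an outer fibrous layer and an inner layer that holds osteogenic cells, so that genes of matrix and of mineral inhibition are of interest there.

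The cells were Tomato+ cells of tibial and femoral periosteum, sorted 1 per well from 1 pool of 2 to 3 female mice at each of 3 times after tamoxifen (2 doses of 75 mg/kg). The labels give chases of 2, 43 and 96 days and ages of 10.3, 14.4 and 20.1 weeks, here called 2 days, 6 weeks and 13 weeks. The 2-day and 6-week mice were αSMACreER/Ai9/Col2.3GFP, in which tamoxifen marks αSMA-expressing cells and their progeny with Tomato and osteoblasts carry GFP. The 13-week mice were H2B-GFP/αSMACreER/Ai9 and had received doxycycline in the diet for 5 weeks from postnatal day 11 by the labels (day 10 by the methods). The 2-day and 13-week cells shared a plate and the 6-week cells had another. Strain, doxycycline, age and chase therefore cannot be told apart at 13 weeks, nor plate, age and chase at 6 weeks.

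Wells with 200 or more genes were kept as cells: 181, 189 and 133 in time order, with a median of 727 UMIs per cell and 117824 to 171209 UMIs per pool. Cells with 3 or more UMIs of Thbs4, Fmod and Tnmd together and no Rgs5 are called fibrous cells (67, 64 and 43 cells in time order), since these 3 genes mark tendon and fibrous tissue. Cells with an Rgs5 UMI and fewer than 3 of the other gate genes are called Rgs5+ cells (32, 41 and 32), Rgs5 being a gene of pericytes. The remaining cells had neither (79, 80 and 52), and 13 cells with both were left out of the tests. Markers outside the gates were then compared, and 8 of 9 tested tendon or fibrous genes were higher in fibrous than in remaining cells (the exception was the member Tnn), and 5 of 9 perivascular genes were higher in Rgs5+ cells. All 7 tested endothelial genes were also higher in Rgs5+ cells (summed level 26.8 to 55.9 UMIs per 10000 in Rgs5+ cells and 0.295 to 1.28 in fibrous cells). Of fibroblast or progenitor genes, 7 of 11 were lower and 1 (Dcn) was higher in fibrous than in remaining cells, and the remaining cells also held 9 of 9 muscle fibre genes and 2 of 3 satellite cell genes (Pax7 and Des) at a higher level than fibrous cells. The third, Chodl, was higher in fibrous cells (2.16 ± 0.35 on the log2 scale), and the summed satellite level was 8.27 to 23.1 UMIs per 10000 in fibrous and 8.09 to 11.1 in remaining cells, with Cdh15 and Myf5 at 0 in fibrous cells. The 4 tested red blood cell genes were lower in fibrous than in remaining cells, 1 of 4 osteoblast genes was lower (Bglap), and Prg4, the only tested gene of the chondrocyte list, was higher. The Schwann and immune lists had 0 tested genes. DESeq2 gave the same counts for the tendon, endothelial and chondrocyte genes, and fewer for perivascular (4), fibroblast (5), muscle fibre (7), satellite (1 lower, 1 higher), osteoblast (0) and red blood cell genes (0). Bone transcripts (Bglap, Bglap2 or Ibsp) were found in 13.8% of the 2-day cells, 81.0% of the 6-week cells and 8.27% of the 13-week cells, and at 6 weeks they lay in all classes.

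Promoter sequences are shown for Cyr61 and the tenascins, so that the tenascin that passed class comparisons below (Tnc) stands beside the one that did not (Tnn). They are the 250 bases before the RefSeq start of transcription (GRCm38.p6, all on the minus strand), and RefSeq promoters were matched for 4 of the 10 members (Tnn, Cyr61, Tnc and Sparc). Cyr61 (chr3:145649986-145650235) and Tnc (chr4:64047016-64047265, the more upstream of its entries) were higher in fibrous cells than in Rgs5+ cells, and Tnn (chr1:160153576-160153825) did not pass that test. Capitals mark the letters GGAATG (read as CATTCC on the other strand), the core bound by TEAD factors, and TATAAA, the TATA box, both searched on either strand.
Cyr61: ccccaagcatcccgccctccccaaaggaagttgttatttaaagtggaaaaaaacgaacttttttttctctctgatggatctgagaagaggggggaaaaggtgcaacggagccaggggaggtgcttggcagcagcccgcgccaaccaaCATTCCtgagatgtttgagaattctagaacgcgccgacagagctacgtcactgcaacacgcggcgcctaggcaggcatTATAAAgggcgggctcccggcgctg
Tnc: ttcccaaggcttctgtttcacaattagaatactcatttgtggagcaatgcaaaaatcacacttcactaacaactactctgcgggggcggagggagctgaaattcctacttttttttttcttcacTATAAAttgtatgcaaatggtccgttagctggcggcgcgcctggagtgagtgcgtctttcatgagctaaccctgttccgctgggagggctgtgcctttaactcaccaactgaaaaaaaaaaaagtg
Tnn: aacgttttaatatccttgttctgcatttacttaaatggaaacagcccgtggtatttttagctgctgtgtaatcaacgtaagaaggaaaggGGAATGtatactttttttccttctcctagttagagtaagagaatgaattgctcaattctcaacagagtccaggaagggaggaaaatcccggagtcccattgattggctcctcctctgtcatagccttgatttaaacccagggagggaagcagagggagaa
The window of Cyr61 held both motifs, that of Tnn the first and that of Tnc the second. That of Sparc, which is not shown, held neither, although Sparc was also higher in fibrous than in Rgs5+ cells. Of 32851 promoter windows of this length, 12.6% held GGAATG and 12.4% held TATAAA. A search for TGANTCA, the site of AP-1 factors, found none in these windows, and 6.75% of all windows held it. A match describes the letters and shows no binding.

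All 10 are protein-coding genes, and their positions are those of the gene bodies in GENCODE M21 (GRCm38). Mgp is at chr6:136872435-136875823, Sparc at chr11:55394500-55423183 and Sparcl1 at chr5:104079111-104113733. Tnc is at chr4:63959785-64047015, Tnn at chr1:160085029-160153580 and Thbs1 at chr2:118111876-118127133. Cyr61 is at chr3:145646976-145649981 and Ctgf at chr10:24595442-24598683. Fn1 is at chr1:71585520-71653200 and Abi3bp at chr16:56477878-56690135. UMIs were counted per gene, so that splice forms of Fn1 or Tnc were not separated.

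The first question was which cells carried these transcripts. To compare cell classes, UMIs were summed over the cells of each class in each pool, giving 9 sums, and tested with edgeR's quasi-likelihood test with the pool as a block and Benjamini-Hochberg adjustment over 2423 genes. Of the 10 members, 8 were higher in fibrous than in remaining cells and 0 were lower. Over all tested genes, 5.98% were higher and 4.7% lower in this comparison, shares that are not matched to the members for UMIs. Against Rgs5+ cells, 8 members were higher in fibrous cells and 0 were lower, beside 7.59% and 5.49% of all genes. Both counts of 0 were also 0 at an unadjusted p under 0.05 and with DESeq2, which called 7 members higher in each of these comparisons. Between Rgs5+ and remaining cells, 1 member was higher and 2 were lower, beside 3.63% and 4.09% of all genes. The median log2 fold change of the members was 1.71, 2.52 and -0.73 in these comparisons in turn, and that of all tested genes was 0.05, 0.07 and -0.07. All members but Thbs1 (95) and Tnn (53) had 100 or more UMIs. With only genes of 100 or more UMIs tested, 86 were higher and 46 lower in fibrous than in remaining cells. Against Rgs5+ cells, 101 were higher and 51 lower in fibrous cells. The correlations below drew on 585 genes of that depth, and the called shares of such genes were larger than the shares of all genes given here.

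**Figure D1:**
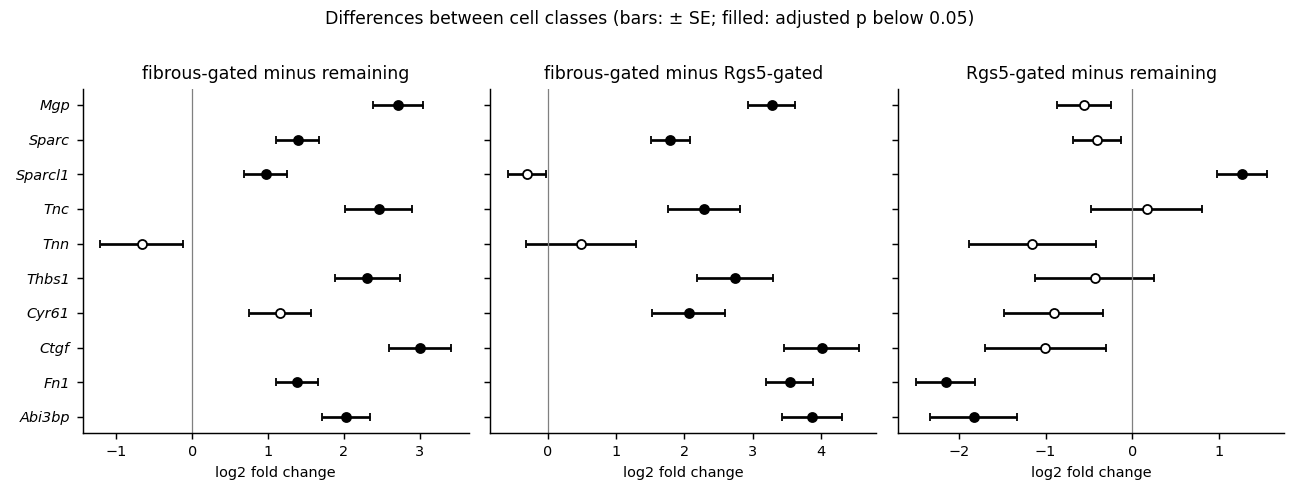
Log2 fold changes (x axis) of the 10 genes (y axis) between cell classes, from edgeR over 9 sums; bars show ± SE and filled points passed an adjusted p of 0.05. In both comparisons with fibrous cells 8 points are filled and lie right of 0, and between Rgs5+ and remaining cells Sparcl1 alone is filled right of 0.

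Mgp, the mineral inhibitor, was one of the most abundant members. Its level in fibrous cells was 163, 186 and 237 UMIs per 10000 at 2 days, 6 weeks and 13 weeks. The same pools gave 39.8, 22.9 and 14.2 in Rgs5+ cells and 60.9, 42.3 and 15.3 in remaining cells. The lowest fibrous value exceeded the highest value of either other class. Mgp was higher in fibrous than in remaining cells by 2.72 ± 0.33 on the log2 scale (SE, edgeR adjusted p = 7.38e-09) and higher than in Rgs5+ cells by 3.28 ± 0.34 (edgeR adjusted p = 6.57e-11). The difference of Rgs5+ from remaining cells did not pass the threshold (-0.56 ± 0.32, edgeR adjusted p = 0.384), but Mgp was lower in Rgs5+ cells under 3 of 20 alternatives. These were no filter on low counts (-1.02, edgeR adjusted p = 2.67e-05), cells with bone transcripts left out (-1.27, edgeR adjusted p = 0.00873) and Rgs5+ cells set against all other cells, fibrous ones included (-1.50, edgeR adjusted p = 0.000149). With each cell thinned to 300 UMIs, Mgp was found in 87.6% of fibrous cells (97.1% unthinned), 47.5% of Rgs5+ cells (66.7%) and 42.1% of remaining cells (61.1%). Of 17 muscle fibre cells, whose own expression of Mgp was not tested, 29.4% held Mgp unthinned at a median of 411 UMIs (571 in Rgs5+ and 734 in remaining cells). Both comparisons with fibrous cells held under all the alternatives tried.

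The fold between fibrous and remaining cells was not the same in each pool. For Mgp it was 2.67 in the 2-day pool (95% interval 2.40 to 2.98), 4.39 in the 6-week pool (3.84 to 5.03) and 15.4 in the 13-week pool (12.1 to 19.9). These and all other intervals cover counting error only. The remaining cells were mixed, and within them Mgp was 59.3 per 10000 in 86 cells with 2 or more UMIs of the fibroblast genes Pdgfra, Ly6a, Dpt, Pi16 and Clec3b. It was 25.3 in 46 cells with a UMI of the satellite cell genes Pax7, Cdh15 or Myf5. This order held in the 2-day and 6-week pools (86.4 and 57.8 against 36.2 and 5.36) and was the other way at 13 weeks (14.6 against 24.0). The limits of these groups were chosen after values were seen.

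Sparc, the collagen-binding osteonectin, was found in nearly all cells. Fibrous cells held 204, 219 and 133 UMIs per 10000 in time order, Rgs5+ cells 53.7, 116 and 29.6, and remaining cells 93.4, 116 and 46.8. Fibrous cells were highest in each pool, and in all 3 classes the level was highest at 6 weeks and lowest at 13 weeks. Sparc was 1.39 ± 0.28 higher on the log2 scale in fibrous than in remaining cells (edgeR adjusted p = 0.000213), a call that was lost without the pool block (1.30, edgeR adjusted p = 0.125). The difference from Rgs5+ cells was 1.80 ± 0.29 (edgeR adjusted p = 3.13e-06). The difference of Rgs5+ from remaining cells did not pass the threshold (-0.41 ± 0.28, edgeR adjusted p = 0.509), and Sparc was lower in Rgs5+ cells under 2 of 20 alternatives, with no filter on low counts (-0.85, edgeR adjusted p = 0.00028) and against all other cells (-1.04, edgeR adjusted p = 0.0091).

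The Sparc levels outside fibrous cells can be set beside those of muscle fibre cells, here used as a reference for free RNA. Whether muscle fibre cells make Sparc themselves was not tested. In 17 muscle fibre cells (10 or more UMIs of Acta1, Mb, Ckm, Mylpf, Tnnc2 and Tcap, median 411 UMIs) Sparc stood at 122 UMIs per 10000 (92.5 to 158) at 6 weeks, where 10 of 10 such cells had it. It stood at 27.6 (13.2 to 50.7) at 13 weeks. The 1 such cell at 2 days held none. The Rgs5+ values of 116 and 29.6 lay inside these intervals, as did the remaining values of 116 and 46.8. The fibrous values of 219 and 133 lay above them. All 17 reference cells belong to the remaining class, whose Sparc level without them was 94.7, 116 and 48.4 in time order. The part of free RNA in the Sparc of Rgs5+ and remaining cells was not tested, and at 13 weeks the reference rests on 6 cells. The reference held Mgp at 5.35 and Fn1 at 5.35, and Sparcl1, Ctgf and Abi3bp in 0 of 17 cells, with an exact Poisson interval of 0 to 3.95 UMIs per 10000.

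Sparcl1 stood apart from the other members, and it was the only one of the 10 that was higher in Rgs5+ than in remaining cells. Its level in Rgs5+ cells was 13.0, 16.5 and 31.8 UMIs per 10000 in time order. Fibrous cells held 10.8, 16.4 and 15.6, and remaining cells 6.20, 9.41 and 9.37. The lowest Rgs5+ value lay above the highest of remaining cells, and the ranges of Rgs5+ and fibrous cells overlapped. The Rgs5+ cells exceeded remaining cells by 1.27 ± 0.29 on the log2 scale (edgeR adjusted p = 0.00153), and without the 13-week pool this fell to 1.01 (edgeR adjusted p = 0.0898). Fibrous cells exceeded remaining cells by 0.97 ± 0.28 (edgeR adjusted p = 0.0145), a call that leaving out any 1 of the 3 pools ended (edgeR adjusted p = 0.0578 to 0.141), while the difference of Sparcl1 stayed at 0.93 to 0.98. Fibrous and Rgs5+ cells did not differ past the threshold (-0.30 ± 0.28, edgeR adjusted p = 0.599).

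Sparcl1 was found in Rgs5+ cells with and without endothelial transcripts. In 33 Rgs5+ cells with 2 or more UMIs of Pecam1, Cdh5, Kdr, Flt1 and Emcn its level was 24.2 per 10000, and in 63 with none it was 17.5. By pool, the first group held 13.4, 19.8 and 34.1 and the second 13.5, 12.8 and 29.4, so that both were highest at 13 weeks. Leaving out cells of other types, endothelial ones included, ended the call against remaining cells (0.93 on the log2 scale, edgeR adjusted p = 0.0884). Mgp ran the other way, at 9.31 per 10000 in the Rgs5+ cells with endothelial transcripts and 37.9 in those without. The genes most like Sparcl1 over the 9 sums were Itgb1 (Pearson r = 0.864), Gnai2 (0.85) and Lmo7 (0.813), and its r with the 7 other members compared ran from -0.455 (Cyr61) to 0.041 (Tnc). The sums share cells' depth and pool, and r is given as a description.

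Of the tenascins, Tnc followed the fibrous pattern and Tnn did not. Tnc held 4.72, 4.80 and 4.10 UMIs per 10000 in fibrous cells, 0.463, 2.03 and 0.365 in Rgs5+ cells and 1.01, 1.52 and 0.213 in remaining cells. Fibrous cells lay above both other classes in each pool without overlap. The differences were 2.46 ± 0.44 (edgeR adjusted p = 3.89e-05) from remaining and 2.29 ± 0.53 (edgeR adjusted p = 0.00104) from Rgs5+ cells. Leaving out the 2-day pool ended the second call for Tnc (2.01, edgeR adjusted p = 0.0535). Read counts in place of UMIs ended both calls, although the differences of Tnc were then larger (3.64 and 3.23, edgeR adjusted p = 0.211 and 0.221). The genes most like Tnc were Thbs2 (r = 0.951), Pamr1 (0.948) and Col12a1 (0.947).

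Tnn (tenascin-W), which is known from periosteum and other sites of bone formation, was found in 25 of 503 cells. Fibrous cells held 8, 7 and 0 Tnn UMIs at 2 days, 6 weeks and 13 weeks, Rgs5+ cells 1, 4 and 0, and remaining cells 24, 9 and 0. No class comparison of Tnn passed the threshold (-0.67 ± 0.55 between fibrous and remaining cells, edgeR adjusted p = 0.548). The UMIs were distributed differently in the pools. At 2 days they lay in 8 cells, of which 6 had 2 or more and 1 had 12, and all 8 also held Postn (2 to 25 UMIs), while 53 of all 181 cells did. The 8 cells held 467 to 2630 UMIs, against a median of 795 in the 2-day pool, and the part of depth in the shared detection was not tested. Of these 8 cells, 7 had at most 3 Mgp UMIs, and Sparc ranged from 7 to 149 UMIs. At 6 weeks the 21 UMIs, 1 of them in a cell with both gates, were spread over 17 cells of all classes with at most 2 each, and 7 of the 17 held Postn. The bone transcripts Bglap and Ibsp were likewise spread over the classes at 6 weeks (Bglap 10.9 and Ibsp 7.94 per 10000 in fibrous cells, 12.9 and 19.3 in muscle fibre cells), and their part in the 6-week Tnn values was not tested. At 13 weeks, 0 of 133 cells held Tnn, which by a limit of 3 counts allows up to 2.26% of cells with a UMI and up to 0.255 UMIs per 10000 (exact 95% upper bounds 2.73% and 0.313). This bounds cells with a captured Tnn UMI, not cells that express the gene.

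**Figure D2:**
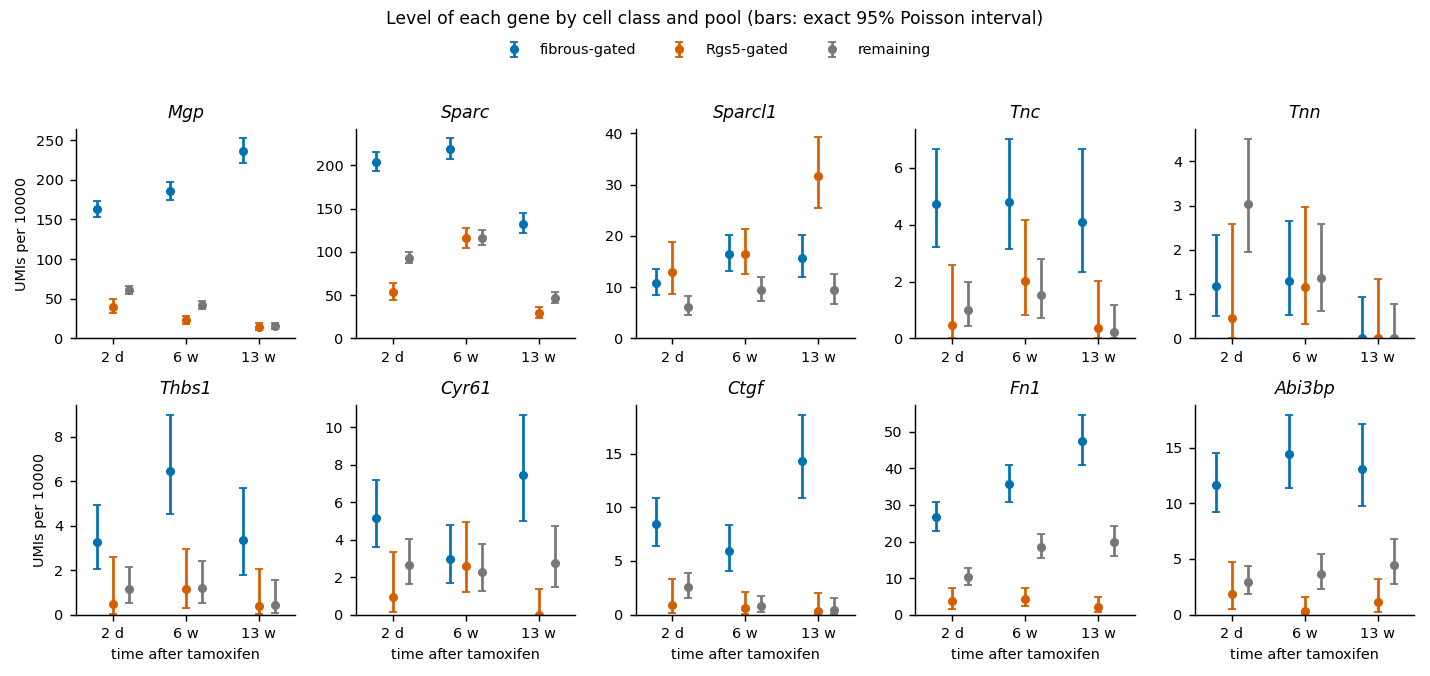
Level of each gene in UMIs per 10000 (y axes start at 0 and differ) by time after tamoxifen (x axis) and cell class (colour), with exact 95% Poisson intervals of each sum. The fibrous points lie highest in all 3 pools for Mgp, Sparc, Tnc, Thbs1, Cyr61, Ctgf, Fn1 and Abi3bp, the Rgs5+ points lie highest for Sparcl1 at 13 weeks, and Tnn is at 0 in all classes at 13 weeks.

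Thbs1, an adhesion-modulating protein that also activates latent TGFβ, was low but mostly in fibrous cells. It held 3.25, 6.46 and 3.33 UMIs per 10000 there, 0.463, 1.16 and 0.365 in Rgs5+ cells and 1.14, 1.21 and 0.426 in remaining cells. The fibrous values exceeded all others. The differences were 2.31 ± 0.43 (edgeR adjusted p = 6.88e-05) from remaining and 2.74 ± 0.56 (edgeR adjusted p = 0.000185) from Rgs5+ cells, and thinning every cell to 300 UMIs ended both calls for Thbs1 (1.44 and 2.36, edgeR adjusted p = 0.177 and 0.148). At 2 days, 40.9% of the fibrous Thbs1 UMIs lay in 1 cell.

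The CCN genes Ctgf and Cyr61 are both known targets of YAP and TEAD. Ctgf held 8.41, 5.91 and 14.3 UMIs per 10000 in fibrous cells, 0.925, 0.579 and 0.365 in Rgs5+ cells and 2.53, 0.758 and 0.426 in remaining cells. The Ctgf ranges of fibrous cells and of the other classes did not overlap. Its differences were 3.01 ± 0.41 (edgeR adjusted p = 1.08e-07) from remaining and 4.01 ± 0.55 (edgeR adjusted p = 7.23e-08) from Rgs5+ cells, and both held under all the alternatives tried. The difference of Ctgf between Rgs5+ and remaining cells did not pass the threshold (edgeR adjusted p = 0.512), and it did so under 2 of 20 alternatives, with a gate of 2 Rgs5 UMIs (-2.98, edgeR adjusted p = 0.0493) and against all other cells (-2.46, edgeR adjusted p = 0.000465). Of the 20 Ctgf UMIs of the remaining cells at 2 days, 12 lay in 1 cell. After thinning, 18.3% of fibrous cells, 1.98% of remaining cells and 0 of 99 Rgs5+ cells held Ctgf (36.8%, 6.16% and 4.76% unthinned). The exact binomial interval of the last thinned share reached 3.66%.

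Cyr61 held 5.17, 2.95 and 7.43 UMIs per 10000 in fibrous cells, 0.925, 2.61 and 0 in Rgs5+ cells and 2.65, 2.28 and 2.77 in remaining cells. Fibrous cells were highest in each pool. The ratio of the Cyr61 level in fibrous to that in remaining cells was 1.95 at 2 days (exact 95% counting interval 1.10 to 3.52), 1.30 at 6 weeks (0.601 to 2.82) and 2.69 at 13 weeks (1.35 to 5.63), so that only the 6-week interval covered 1. The difference from remaining cells did not pass the threshold (1.16 ± 0.41, edgeR adjusted p = 0.0614), and under the alternatives the adjusted p of Cyr61 ranged from 0.0198 to 0.502. The difference from Rgs5+ cells was 2.06 ± 0.53 (edgeR adjusted p = 0.00405) and was lost for Cyr61 without the 2-day pool (1.88, edgeR adjusted p = 0.137) or without the 13-week pool (1.08, edgeR adjusted p = 0.265). Of the other TEAD target genes, 18 were listed for the comparison and 8 were tested. Between fibrous and remaining cells edgeR called 0 of the 8, as did DESeq2, and 1 of them had an unadjusted p under 0.05 (Gadd45b, -1.20 ± 0.57). Of the 8, 1 was higher in fibrous than in Rgs5+ cells (Axl, 2.16 ± 0.53). Of 17 tested immediate early genes, which respond to cell handling and growth factors, 0 were higher and 7 were lower in fibrous than in remaining cells, among them Junb (-1.64 ± 0.34), Zfp36 (-1.92 ± 0.39) and Fosb (-1.46 ± 0.31). With DESeq2, 3 of the 17 were lower.

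Fn1, which forms the fibronectin network on which collagen is laid down, was graded over the classes. It held 26.7, 35.6 and 47.4 UMIs per 10000 in fibrous cells, 10.2, 18.5 and 19.8 in remaining cells and 3.70, 4.35 and 2.19 in Rgs5+ cells. The ranges of the 3 classes did not overlap. Fibrous cells exceeded remaining cells by 1.39 ± 0.27 (edgeR adjusted p = 0.000177) and Rgs5+ cells by 3.54 ± 0.34 (edgeR adjusted p = 8.87e-12). Rgs5+ cells lay below remaining cells (-2.16 ± 0.34, edgeR adjusted p = 7.17e-06), under the 5.35 found in muscle fibre cells. Read counts ended the first Fn1 call (1.36, edgeR adjusted p = 0.143) and thinning ended the third (-1.17, edgeR adjusted p = 0.114). Within the remaining cells, Fn1 was 23.6 per 10000 in those with fibroblast genes and 8.36 in those with satellite cell genes, where 28 of the 34 UMIs lay in 3 cells of the 6-week pool.

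Abi3bp had the same order of classes. It held 11.7, 14.4 and 13.1 UMIs per 10000 in fibrous cells, 2.91, 3.64 and 4.47 in remaining cells and 1.85, 0.290 and 1.10 in Rgs5+ cells. These ranges did not overlap either. Fibrous cells exceeded remaining cells by 2.03 ± 0.32 (edgeR adjusted p = 2.82e-06) and Rgs5+ cells by 3.87 ± 0.44 (edgeR adjusted p = 1.08e-09), and both calls held under all the alternatives tried. The lower level in Rgs5+ than in remaining cells (-1.83 ± 0.50, edgeR adjusted p = 0.0115) rested on 8 Abi3bp UMIs in Rgs5+ cells and was lost without the 6-week pool (-1.16, edgeR adjusted p = 0.399) or without the 13-week pool (-1.74, edgeR adjusted p = 0.162). Over the 9 sums Abi3bp was most like Calr (r = 0.978), Tgfbr3 (0.957) and Prelp (0.954), and Fn1 was most like Axl (0.952), Lrp1 (0.93) and Dcn (0.928).

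The members also differed along the gate itself, and most had higher levels in cells with more gate UMIs. In cells without Rgs5, Mgp stood at 38.2 UMIs per 10000 with 0 gate UMIs, 48.6 with 1 or 2, 63.4 with 3 or 4, 160 with 5 to 9 and 211 with 10 or more. Sparc stood at 85.3, 94.5, 88.5, 210 and 203 in the same steps, so that the step lay between 3 or 4 and 5 to 9 gate UMIs. Ctgf went from 0.834 to 10.6 and Fn1 from 11.2 to 40.5 between the first and the last step. The cells just inside the gate (21 cells, 3 or 4 UMIs) were closer in Mgp, Sparc and Ctgf to those just outside it (98 cells, 1 or 2 UMIs) than to those with 5 to 9, a description with no test. Tnn had another course, at 0.626, 2.81, 4.78, 1.70 and 0.249 in the same steps. These Tnn levels rest on few cells and pool the times. In the second step 12 Tnn UMIs lay in a single 2-day cell, and in the third 5 lay in another. The median depth was 796, 714, 802, 423 and 900 UMIs per cell over the steps, and its part in these levels was not tested.

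**Figure D3:**
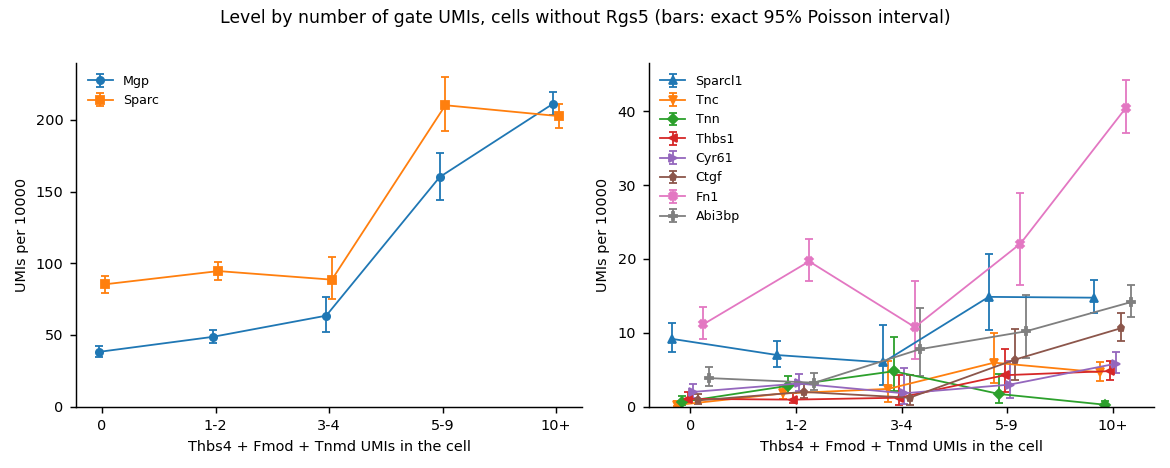
Level in UMIs per 10000 (y axes, from 0) by the number of Thbs4, Fmod and Tnmd UMIs in the cell (x axis), for cells without Rgs5 pooled over time, with exact 95% Poisson intervals. Mgp and Sparc (left) stay under 100 up to 4 gate UMIs and lie at 160 to 211 from 5 on, and Fn1 (right) reaches 40.5 in the last step.

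Single fibrous cells held different combinations of the members. After thinning to 300 UMIs, a fibrous cell held UMIs of 4 of the 10 members at the median, and a remaining or Rgs5+ cell held 2 (5, 3 and 3 unthinned). Of 169 thinned fibrous cells, 137 held both Mgp and Sparc. Ctgf was found in 18.2% of the thinned fibrous cells with Mgp and in 19.0% of those without, and Tnc in 10.8% and 19.0%. Sparcl1 was found in 38.5% of those with Mgp and in 4.76% of the 21 without. Ctgf was found in 29.4% of the thinned fibrous cells with Thbs1 and 17.1% of those without (71.1% and 27.2% unthinned), and in 31.6% of those with Cyr61 and 16.7% of those without (68.9% and 25.6% unthinned). The part of depth in the unthinned shares was not tested, and all these shares are given with no test. The summed level of the 10 members was 439, 493 and 475 UMIs per 10000 in fibrous cells in time order, of which Mgp and Sparc made up 367, 405 and 369. In remaining cells the sum was 184, 197 and 99.6, and in Rgs5+ cells it was 115, 168 and 80.0. Single cells spread widely around these levels, since Mgp in fibrous cells ran from 0 to 1206 per 10000 at 6 weeks with a median of 114.

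**Figure D4:**
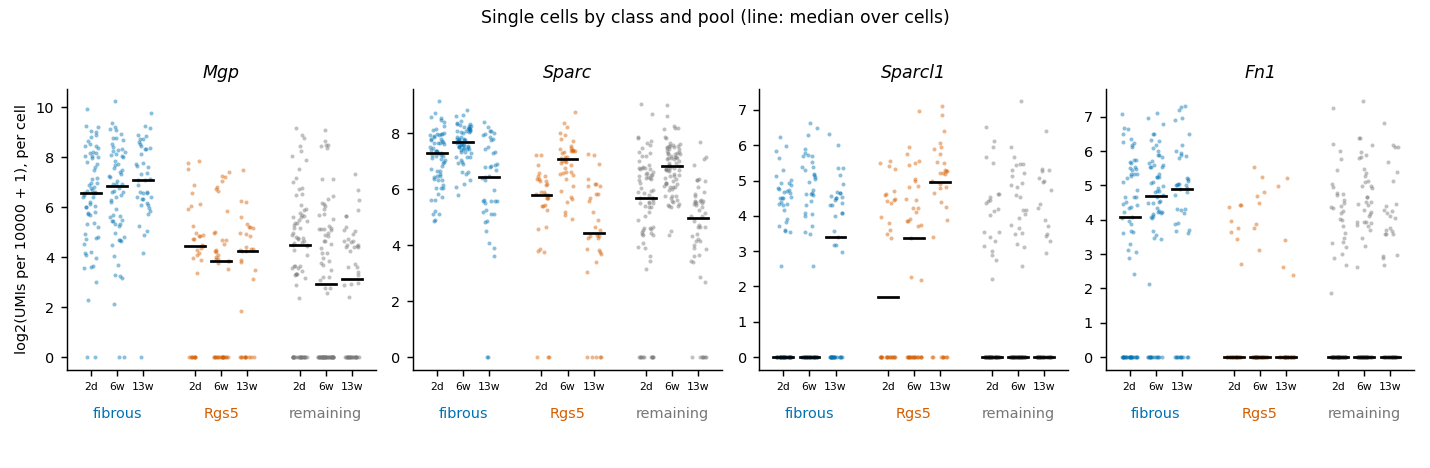
Each point is a cell, placed by class and pool (x axis) and by log2(UMIs per 10000 + 1) of the gene named above each panel (y axis); black lines are medians over cells. Median Mgp is highest in fibrous cells in all 3 pools, Sparc is found in every 6-week cell, and median Sparcl1 is above 0 in the Rgs5+ cells of all 3 pools and in 13-week fibrous cells.

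The second question was how the levels stood at the 3 times. With 1 pool per time, no test was possible, and levels are given with counting intervals. Over all cells, Mgp stood at 99.6, 90.3 and 93.6 UMIs per 10000 in time order, Abi3bp at 6.66, 6.63 and 6.62, and Cyr61 at 3.39, 2.55 and 3.73. These 3 genes differed by less than 1.5-fold at both later times in these sums. That did not hold for Abi3bp after thinning, with log2 ratios of 0.75 at 6 weeks and 0.89 at 13 weeks, with read counts at 13 weeks (0.69) or without cells with bone transcripts at 6 weeks (0.64). Nor did it hold for Cyr61 at 6 weeks with read counts (-1.09) or after thinning (-1.28). Of the 8 members with 50 or more UMIs in the 2-day and 13-week pools, 2 were 1.5-fold or more higher at 13 weeks (Sparcl1, Fn1) and 2 were lower (Sparc, Tnc), beside 8.68% and 18.5% of 772 genes. The counting interval of the Tnc ratio covered 1 (0.638, 0.345 to 1.14). Tnn, under that minimum, had 33 UMIs at 2 days and 0 at 13 weeks, 7.57-fold lower by UMIs against a floor of 3 counts. The 33 UMIs lay in only 8 of 181 cells, 12 of them in 1 cell, so that this fold is no secure minimum. By cells, 8 of 181 stood against 0 of 133. At 6 weeks, 1 of 10 was higher (Thbs1, 1.60-fold, 1.00 to 2.60) and 1 lower (Ctgf, 0.567, 0.379 to 0.837), beside 13.2% and 11.5% of 957 genes. The median ratio over all genes compared was 0.918 at 13 weeks and 0.981 at 6 weeks.

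The ratio of Mgp between 13 weeks and 2 days, whose cells share a plate, lay on opposite sides of 1 in different classes. In fibrous cells the 13-week level was 1.45 times that at 2 days (1.33 to 1.59). In remaining cells it was 0.251 times (0.194 to 0.323) and in Rgs5+ cells 0.358 times (0.239 to 0.529). The median over fibrous cells was 94.8 UMIs per 10000 at 2 days and 135 at 13 weeks. Within the remaining cells, those with fibroblast genes stood at 86.4 per 10000 at 2 days (33 cells) and 14.6 at 13 weeks (19 cells), and those with satellite cell genes stood at 36.2 (23 cells) and 24.0 (11 cells). The highest single cell held 13.9% of the Mgp UMIs of remaining cells at 2 days and 19.4% at 13 weeks. Over all cells the ratio was 0.940 (0.870 to 1.01). Whether the ratios differ between classes was not tested, since each time is 1 pool.

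**Figure D5:**
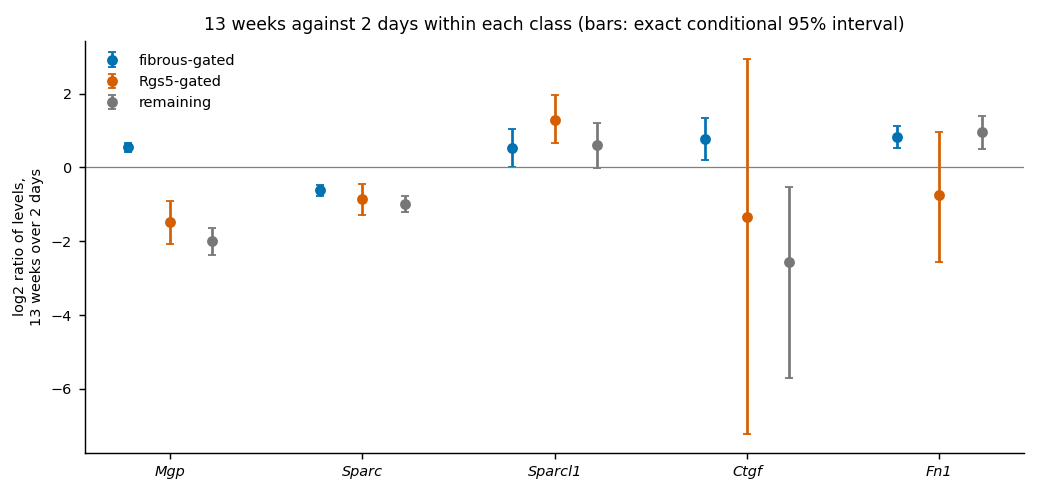
Log2 ratio of the 13-week to the 2-day level (y axis) for 5 genes (x axis) in each cell class (colour), with exact conditional 95% intervals, which cover counting error only. Mgp lies above 0 in fibrous cells and below 0 in both other classes, Sparc lies below 0 in all 3 and Sparcl1 above 0 in all 3.

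Sparc was lower at 13 weeks than at 2 days in each class, at 0.651 times in fibrous cells (0.587 to 0.720), 0.551 in Rgs5+ cells (0.410 to 0.739) and 0.501 in remaining cells (0.429 to 0.584). Over all cells Sparc stood at 132, 153 and 71.8 UMIs per 10000 in time order. The fibrillar collagen genes Col1a1 and Col1a2, which are among the 3 genes most like Sparc over the sums (r = 0.968 and 0.983), stood at 0.348 and 0.477 times their 2-day level at 13 weeks. The ratio of Sparc between 6 weeks and 2 days was 2.16 in Rgs5+ cells (1.75 to 2.68), 1.25 in remaining cells (1.12 to 1.38) and 1.07 in fibrous cells (0.994 to 1.16). Sparc was found in 10 of 10 muscle fibre cells of that plate, as given above, and these ratios are set beside that value with no test of it.

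Fn1 stood at 26.7 per 10000 in fibrous cells at 2 days and 47.4 at 13 weeks (ratio 1.77, 1.44 to 2.19), and at 10.2 and 19.8 in remaining cells (1.93, 1.42 to 2.64). In Rgs5+ cells it was 3.70 and 2.19 (0.592, 0.169 to 1.95). In the remaining cells with fibroblast genes Fn1 stood at 15.0 and 35.3, and in those with satellite cell genes it was 1.86 and 2.52. Over all cells the log2 ratio of Fn1 was 0.67, and it was 0.32 without the deepest 5% of cells and 0.42 after thinning. Ctgf at 13 weeks stood at 1.70 times its 2-day level in fibrous cells (1.16 to 2.51), where the highest single cell held 28.6% of the 13-week UMIs, and stood at 0.168 times its 2-day level in remaining cells (0.0191 to 0.693, 2 UMIs at 13 weeks). Most of the 2-day Ctgf UMIs of remaining cells lay in 1 cell, as given above, which the second interval does not take into account. In fibrous cells 7 members had 50 or more UMIs over these 2 pools. Of the 7, 2 were 1.5-fold or more higher (Fn1, Ctgf) and 1 was lower (Sparc), beside 10.3% and 27.8% of 252 genes. The median ratio of those genes was 0.838.

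Sparcl1 was 1.92 times its 2-day level at 13 weeks over all cells (1.55 to 2.38). In Rgs5+ cells the ratio was 2.45 (1.59 to 3.90), in fibrous cells 1.45 (1.01 to 2.07) and in remaining cells 1.51 (0.983 to 2.32). The share of Rgs5+ cells with 2 or more endothelial UMIs was 9 of 32 cells at 2 days and 12 of 32 at 13 weeks, and Sparcl1 was higher at 13 weeks in both kinds of Rgs5+ cells. Thbs1 at 6 weeks stood at 1.99 times its 2-day level in fibrous cells (1.14 to 3.56), and 28.6% of its 6-week UMIs lay in 1 cell. Over all cells the log2 ratio of Thbs1 at 6 weeks was 0.68, and without the deepest 5% of cells it was -0.085. In fibrous cells the ratio of Tnc to its 2-day level was 1.02 at 6 weeks (0.582 to 1.76) and 0.868 at 13 weeks (0.445 to 1.63). The lower all-cell ratio of Tnc at 13 weeks (log2 -0.65) was -0.012 without the deepest 5%.

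Other genes of the same kinds were counted to show where the members stand. Of 27 other matricellular genes 20 were tested, of which 8 were higher and 2 lower in fibrous than in remaining cells, with a median log2 fold change of 0.66. The higher ones included the periostin gene Postn (2.04 ± 0.30), the cartilage intermediate layer protein genes Cilp (3.10 ± 0.34) and Cilp2 (4.41 ± 0.50), and the thrombospondin family genes Thbs2 (2.96 ± 0.46) and Comp (3.36 ± 0.41). Ecm1 (-1.48 ± 0.43) and Smoc2 (-1.10 ± 0.36) were lower. With DESeq2, 6 of the 20 were higher and 0 lower, so that the calls of Ecm1 and Smoc2 were lost. Over the 9 sums Mgp was most like Cilp (r = 0.969), Pdgfrl (0.965) and Postn (0.963), and Ctgf like Pdgfrl (0.973), Mgp (0.961) and Ptx4 (0.958). Cyr61 was most like Col6a1 (0.941), Axl (0.9) and Chodl (0.878), and Sparc also like Rcn3 (0.977). In Rgs5+ against remaining cells 1 of the 20 was higher, the vascular gene Igfbp7 (1.27 ± 0.29), and 5 were lower, against 1 and 0 with DESeq2.

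Of 15 genes of mineral regulation 6 were tested. Enpp1, which makes the mineral inhibitor pyrophosphate, was higher in fibrous than in remaining cells (2.82 ± 0.74 on 30 UMIs, edgeR adjusted p = 0.00703). Those 30 UMIs are the least that the filter admits. Enpp1 entered the test through its level in fibrous cells, so that its call is no independent support. Bglap (osteocalcin) was lower (-1.65 ± 0.47, edgeR adjusted p = 0.0122), and 97.9% of its 235 UMIs in remaining cells at 2 days lay in 1 cell. DESeq2 called none of the 6. Ank, which exports pyrophosphate, did not pass (1.29 ± 0.58, edgeR adjusted p = 0.179). Of 8 genes of the vitamin K cycle and Gla proteins 2 were tested, of which 0 passed between fibrous and remaining cells with edgeR or DESeq2 and 0 had an unadjusted p under 0.05. Vkorc1, the enzyme that recycles vitamin K for proteins such as Mgp, was higher in fibrous than in Rgs5+ cells (2.62 ± 0.73, edgeR adjusted p = 0.00792), a call that DESeq2 did not make.

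Of 19 receptor genes 11 were tested, and Itga8 (1.67 ± 0.53) and the collagen receptor Itga11 (1.62 ± 0.52) were higher in fibrous than in remaining cells. Integrin α8 binds tenascin and fibronectin. DESeq2 called 0 of the 11 between these classes. In Rgs5+ against remaining cells Cd36 (4.03 ± 0.41) and Itgb1 (1.27 ± 0.34) were higher and Lrp1 (-1.26 ± 0.38) was lower, where DESeq2 called 1 higher and 0 lower. Of 12 assembly partners of fibronectin and tenascin 9 were tested, and 5 were higher in fibrous than in remaining cells. They were Col1a1, Col1a2 (1.82 ± 0.34), the cross-linking enzyme gene Lox (1.86 ± 0.41), Dcn (1.03 ± 0.28) and Bgn (0.91 ± 0.29). In Rgs5+ against remaining cells 7 of the 9 were lower, and 1 (Tgm2, 2.34 ± 0.63) was higher. DESeq2 called 2 higher and 0 lower between fibrous and remaining cells, and 3 lower and 0 higher between Rgs5+ and remaining cells, so that the call of Tgm2 was lost.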

How the data were processed

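Single Tomato+ periosteal cells were profiled with a plate-based Drop-seq protocol. The authors aligned reads to the mouse genome (GRCm38) with STAR (version 2.5.4a) and used Drop-seq tools (version 1.13) to count them for each gene in each well. They deposited raw UMI counts and raw read counts, not normalized. Columns without a time point (168 wells) were not used. The 503 kept cells held 445796 UMIs, and 137 well barcodes were shared between plates, since both use the same barcode set. The labels and matrices name 13 weeks, and a readme names 12 weeks for the same wells.

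Levels are UMIs per 10000 of summed cells with exact Poisson intervals, ratios have exact conditional intervals and shares Clopper-Pearson intervals (95%). Cells were also thinned to 300 UMIs (20 shallower cells left out, 6 at 2 days and 7 in each later pool). Thbs4, Fmod, Tnmd and Rgs5 define the classes and were taken out of the tested sums and their library sizes. EdgeR 4.0.16 (TMM, quasi-likelihood) tested genes with 30 or more UMIs, and DESeq2 1.42.0 was an alternative; limma 3.58.1 fitted the sums with equal weight of cells. Nothing says that the cells of a pool can be assigned to single mice, so that the pool was taken as the replicate. With the pool as a block, p-values measure the spread of class differences over 3 pools that also differ in strain, age and plate. This spread was estimated with information shared over genes, so that a p-value does not rest on the spread of its gene alone. Pool was a block because the classes of 1 pool came from the same mice (correlation of their deviations 0.1 to 0.391). The fit was tested on simulated data. No doublets were removed.

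The 10 genes, the lists and the classes were chosen with earlier results of these data known. The text names all 10, the 3 genes most like each (100 or more UMIs), and from each list up to 8 genes with 50 or more UMIs past an adjusted p of 0.05, by smallest p, and any gene a result turns on. Itga8, Enpp1, Tgm2, Ank, Gadd45b and the marker genes Chodl, Des and Prg4 fell outside this rule and were named after their values were seen. Alternatives varied the filter, normalization, block, gates, depth and cell types. Those that left out cells with bone transcripts, the deepest 5% of cells or the top cell of each gene were chosen after seeing the data. The endothelial groups among Rgs5+ cells and the steps of gate UMIs were also set after values were seen. No protein sequences were used.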

Additional observations from a re-analysis of the deposited data

How the results depend on the processing

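Of the 19 calls of members between classes, 8 held under all the alternatives run (19 or 20 each), namely Mgp, Ctgf and Abi3bp between fibrous and remaining cells and Mgp, Sparc, Ctgf, Fn1 and Abi3bp between fibrous and Rgs5+ cells. Sparcl1 between fibrous and remaining cells was the least stable and held under 7 of 20. Without the pool as a replicate block, the counts of members called kept within the limit of 1.5 times, and the calls lost were Sparc (log2 fold change 1.30) and Sparcl1 (0.97) between fibrous and remaining cells. Members higher in fibrous than in remaining cells were 5 with read counts (8 with UMIs), and 1 was lower with a gate of 5 UMIs (Tnn, -1.84). Members higher in fibrous than in Rgs5+ cells were 5 after thinning. In Rgs5+ against remaining cells, 0 members were higher without the filter, with read counts, with a fibrous gate of 1, without other cell types and with one split at a time. The number lower there was 1 with DESeq2, without other cell types, without the deepest 5% and with equal weight of cells, 4 without the filter, 0 after thinning and 6 with one split at a time. Leaving out 1 pool gave 0 to 1 higher and 1 to 2 lower. Over time, the members 1.5-fold higher at 13 weeks numbered 4 with read counts, and 1 with equal weight of cells, without cells with bone transcripts and without the deepest 5%. Tnc, lower at 13 weeks in the main sums, was under 1.5-fold with equal weight of cells (-0.284) and without other cell types (-0.348). The same held without cells with bone transcripts (-0.392) and without the deepest 5% (-0.012). At 6 weeks the members 1.5-fold higher numbered 3 after thinning and 2 with 300 genes per well, without other cell types and without cells with bone transcripts, and the lower ones 2 with read counts, 300 genes per well and without cells with bone transcripts. Of the genes named at 6 weeks, Ctgf was under 1.5-fold after thinning (-0.472) and Thbs1 with equal weight of cells (0.422). Of the class comparisons, the sign turned in uncalled results: in Rgs5+ against remaining cells, Tnc without the filter (-0.28), with a gate of 5 (-0.057), with one split at a time (-1.47) and on leaving out 1 pool (-0.476 to 0.485), Tnn with a gate of 1 (0.17), and Thbs1 without other cell types (0.062) and without the deepest 5% (0.035). It also turned for Tnn between fibrous and remaining cells with a gate of 1 (1.41), Tnn between fibrous and Rgs5+ cells with a gate of 5 (-0.42) and equal weight (-0.12), Sparcl1 there after thinning (0.008), and the 6-week ratio of Thbs1 without the deepest 5% (-0.085). Time ratios under 1.5-fold also turned, to values outside the counting interval of the main ratio for Sparcl1 (-0.373) and Cyr61 (0.299) at 6 weeks without cells with bone transcripts, Sparc at 6 weeks with read counts (-0.112), Mgp at 13 weeks without other cell types (0.16) and Abi3bp, whose ratios lay near 0 (up to 0.889). Leaving out cells with bone transcripts dropped 153 of the 6-week cells (81.0%). The counting error of the cells that were left was not taken into account. Genes called over the whole table ranged from 46 to 145 higher and 25 to 151 lower between fibrous and remaining cells, 60 to 199 and 35 to 150 between fibrous and Rgs5+ cells, and 22 to 102 and 20 to 155 between Rgs5+ and remaining cells. The cause of these changes was not tested. With a median of 727 UMIs per cell, a cell without a UMI of a low gene such as Tnc, Tnn, Thbs1 or Cyr61 is not shown to lack it.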
